A study of Homo sapiens with 12 samples.

Results

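The genes described here are 46 translation initiation and elongation factors, chosen by gene symbol from the gene names in the deposited expression table. Of these, 45 had a row in that table and 43 passed the filter on low counts, out of 64253 gene identifiers counted and 11968 genes tested. RNA came from the ALDH-positive fraction of 697 (EU3), a human B-cell leukaemia line, in which high aldehyde dehydrogenase activity is read with a fluorescent substrate. SH2 names an shRNA that doxycycline switches on together with a green fluorescent reporter. Its target is IGF2BP1, which binds mRNAs in fetal tissue and many tumours and which the series title ties to leukaemia stem cells. SH2 cells were untreated in 4 libraries and doxycycline-treated in 4, with 1 of each in sets 1 to 4. Control cells were untreated in 2 libraries and treated in 2, in sets 2 and 4.

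Several features limit these groups as a model. After doxycycline the treated SH2 cells went through a sort for the reporter, which is active only with the drug. The protocol mentions a scrambled shRNA, but the labels do not say whether the control cells carried it. All groups were labelled as ALDH-positive 697 cells, and all 14 B-lineage markers checked had counts in each of the 4 groups. Among immunoglobulin light chain reads, kappa made up 99.7% to 99.9% in control cells but no more than 0.141% in SH2 cells. Any difference between SH2 and control cells therefore cannot be told apart from a difference between cell populations.

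Translation of most mRNAs begins when the EIF4F complex (the cap-binding protein EIF4E, the scaffold EIF4G and the helicase EIF4A) binds the mRNA cap, while poly(A)-binding proteins hold the tail and contact the scaffold. The small ribosomal subunit, carrying EIF3, EIF1, EIF1A and the EIF2 complex with the initiator tRNA, then scans to a start codon, and EIF2B reloads EIF2 with GTP for the next round. During elongation EEF1A delivers aminoacyl-tRNAs and EEF2 moves the ribosome along the mRNA. Rapidly dividing leukaemia cells depend on this machinery, and many of its mRNAs are themselves under translational control.

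That control acts through the very start of the mRNA: transcripts of ribosomal proteins and of several translation factors begin with a C followed by an unbroken run of pyrimidines, which LARP1 and mTOR signalling read. The start windows below are shown because this feature splits the factors by sequence, independently of their levels. Each window holds 30 bases of the transcript strand around a RefSeq start (build GRCh38.p14), 5′ to 3′, and the capitals mark the pyrimidine run that begins with C at the start. The motif was a C at the start followed by C or T only, at least 5 bases in all, read on the transcript strand alone. Of 50 start entries of these factors, 11 held it (22.0%), against 1429 of 35116 starts in the whole table (4.1%). The 11 starts belonged to EIF2A, EIF2S3, EIF3D, EIF3F, EIF3K, EIF3M, EIF4A2, EIF4B, EEF1A1, EEF1B2 and EEF2. A factor was placed with the motif if any of its starts held it, and EEF1B2 had another start without it. The share counts entries and not factors, and some factors, such as EIF5A, had several entries. EIF2S2, EIF3A, EIF3E, EIF3G, EIF3H, EIF3L, EEF1D, PABPC1 and PABPC4 had no start entry used here. Whether their starts hold the motif was therefore not examined. Windows with the run were these:
EEF1A1, chr6:73521018-73521047, minus strand: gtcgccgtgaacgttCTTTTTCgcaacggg
EEF2, chr19:3985449-3985478, minus strand: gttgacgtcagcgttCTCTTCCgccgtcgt
EEF1B2, chr2:206159880-206159909, plus strand: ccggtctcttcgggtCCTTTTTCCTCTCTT
EIF3F, chr11:7987322-7987351, plus strand: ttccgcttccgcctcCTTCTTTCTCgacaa
EIF3M, chr11:32583816-32583845, plus strand: gcgcggcccagttccCTTTTCCggtcggcg
EIF4B, chr12:53006441-53006470, plus strand: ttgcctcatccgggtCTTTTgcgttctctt
The run filled the window from the start to its end in EEF1B2 and was at its minimum in EIF4B. For contrast, members on which the comparisons below turn had no such run at the windows shown:
EIF4G1, chr3:184314591-184314620, plus strand: tctgtgcggggagccggaaatggttgtgga
EIF4G3, chr1:21176883-21176912, minus strand: cgaagttttccgagcagccgtcctgccgga
EIF5A, chr17:7308358-7308387, plus strand: ggccacatggtcggcaggagccggcagccc
EEF1E1, chr6:8102534-8102563, minus strand: tgttctgcaggtctcgcgtctgccaggagc
EIF4H, chr7:74174341-74174370, plus strand: ccttcctcgctcaccCTggttcctctcgga
EIF4H begins with C, but its run stops short of the minimum. A match describes these letters only, since the starts used in 697 cells were not measured.

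Libraries held 2210291 to 3370952 counts in genes, mainly from near the poly(A) tail. The 46 factors took 2.09% to 3.29% of them. On the principal components the SH2 and control libraries lay apart, and the treated SH2 library of set 4 stood beyond all others, at -76.1 on the second component. IGF2BP1, the gene targeted by the shRNA, lay between 21.7 and 39.2 CPM in untreated and between 6.28 and 25.0 CPM in treated SH2 libraries. It was lower in 4 of 4 sets (log2 fold change -0.99 ± 0.43, SE; unadjusted p = 0.0371), with an edgeR adjusted p of 0.983. Control libraries of sets 2 and 4 had almost none, at 1.42 and 0 CPM untreated and 0.961 and 0.382 CPM treated. The log2 difference between SH2 and control cells was 5.52 ± 0.84 untreated (SE, edgeR adjusted p = 0.000915). In treated cells it was 4.42 ± 0.80 (SE, edgeR adjusted p = 0.00278).

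Doxycycline in SH2 cells moved no translation factor past the threshold over all genes. By edgeR 0 of 43 factors were called at an adjusted p under 0.05, against 0.0167% of all genes tested (2 of 11968, both lower). At an unadjusted p under 0.05 there were 4 factors, all with negative values, against 4.88% of all genes: the poly(A)-binding protein PABPC4, the EIF3 subunit EIF3H, the scaffold EIF4G1 and EEF1E1. DESeq2 called 1 factor, PABPC4, and limma-trend called 0, against 17 and 2 genes among all those tested. The log2 fold change was negative in 28 of 43 factors, with a median of -0.13, and in 46.4% of all genes, whose median was 0.03. In bulk RNA, fewer cells of a type and less RNA per cell cannot be told apart.

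**Figure D1:**
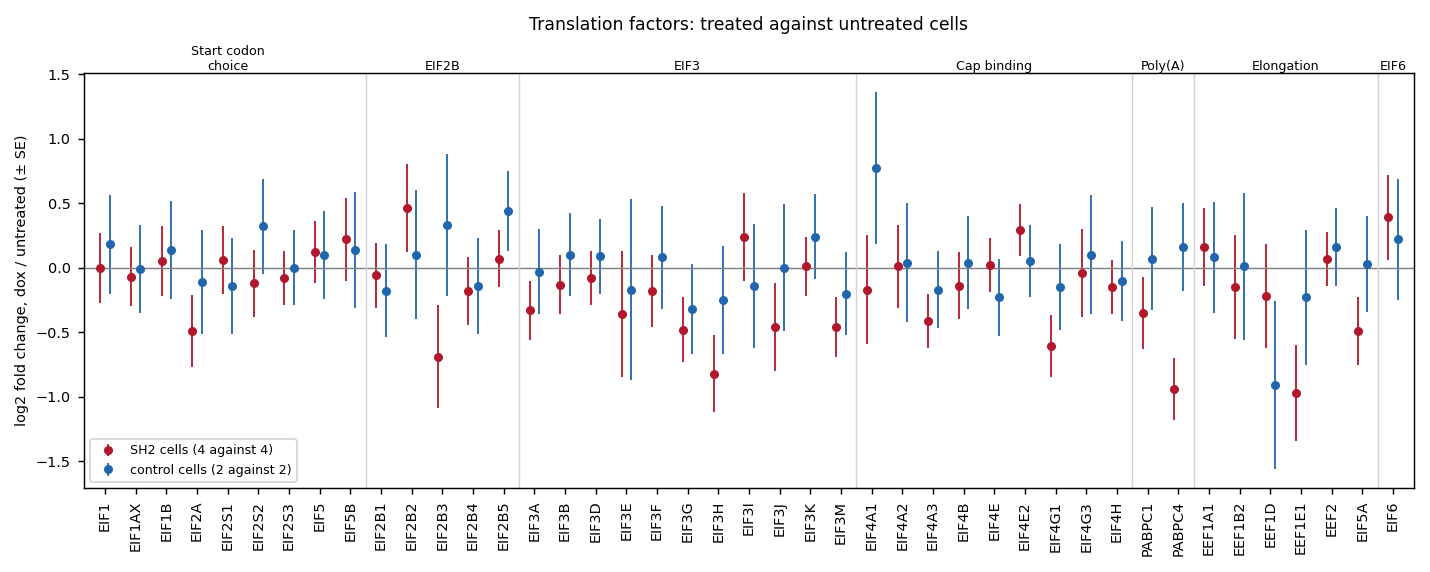
Log2 fold change with its standard error for each of the 43 tested translation factors, treated against untreated, in SH2 cells (n = 4 per group) and control cells (n = 2 per group), ordered by role. PABPC4, EIF3H, EIF4G1 and EEF1E1 lie between -0.97 and -0.61 in SH2 cells, and no factor passed the threshold in either kind of cell.

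PABPC4, a cytoplasmic poly(A)-binding protein related to PABPC1, had the smallest p-value of the factors. Its level was 421, 369, 249.7 and 359 CPM (counts scaled to a common library size) in the untreated SH2 libraries of sets 1 to 4. With doxycycline it was 172, 189, 179.9 and 186 CPM. All 4 treated libraries lay below all 4 untreated ones and close to each other. The means were 349.5 ± 71.9 and 182 ± 7.63 CPM (SD, n = 4 each). The log2 fold change was -0.94 ± 0.24 (SE), or 1.92-fold lower, with an unadjusted p of 0.00156 and an edgeR adjusted p of 0.726. The DESeq2 Wald test gave an adjusted p of 0.0457. The edgeR fit with the set as a block gave -0.92 and an adjusted p of 0.207. Control cells had 384 and 446 CPM without and 336 and 594 CPM with doxycycline in sets 2 and 4, so that set 2 was lower and set 4 higher with treatment. The difference between both responses was -1.11 ± 0.42 (SE), unadjusted p = 0.0186, edgeR adjusted p = 1. PABPC4 was the factor with an unadjusted p under 0.05 in that test. PABPC1, the main poly(A)-binding protein of most cells, had -0.35 ± 0.28 (SE), with 1927, 2359, 1234 and 2064 CPM untreated and 1606, 1804, 1502 and 1024 CPM treated. Its groups overlapped, and 13 annotated pseudogenes carry its name, so its reads could be split.

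EIF4G1 is the main scaffold of the cap-binding complex and the partner that poly(A)-binding proteins contact. Untreated SH2 libraries had 310.2, 364, 271 and 481 CPM, and treated ones 249, 256, 201 and 227 CPM. Every treated library lay below every untreated one, and the largest gap within a set was that of set 4. The log2 fold change was -0.61 ± 0.24 (SE), unadjusted p = 0.0205, edgeR adjusted p = 0.983. In control cells it was -0.15 ± 0.33, from 431 and 471 to 339.7 and 475 CPM. The remaining members grouped with the cap complex showed smaller values in SH2 cells. EIF4A3, grouped here by symbol but a helicase of the exon junction complex, had -0.41 ± 0.21, and was lower in 4 of 4 sets. EIF4E2, a cap-binding protein known as a repressor, had 0.29 ± 0.20 and was higher in 4 of 4 sets, at 68.5 to 101 CPM untreated and 95.9 to 111 CPM treated. The cap-binding protein EIF4E itself had 0.02 ± 0.21, EIF4B, which assists the helicase, -0.14 ± 0.26 and EIF4G3 -0.04 ± 0.34 (SE). Of the 9 factors of this role 6 were negative, with a median of -0.14.

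EIF3, the large complex that holds the small ribosomal subunit ready for the mRNA, had 9 of 11 tested subunits with a negative value in SH2 cells and a median of -0.33. Without the treated SH2 library of set 4 the median was -0.25 (10 of 11 negative), and without both SH2 libraries of that set -0.22 (9 of 11). In control cells 6 of 11 were negative, with a median of -0.03. EIF3H stood at 412, 321, 285 and 376 CPM untreated and at 279.9, 227, 196 and 88.6 CPM treated. The groups did not overlap, and the treated library of set 4 was far below the other 3. The log2 fold change of EIF3H was -0.82 ± 0.30 (SE), unadjusted p = 0.0158, edgeR adjusted p = 0.983. With both SH2 libraries of set 4 left out it was -0.53. EIF3M had 149, 147, 142 and 184 CPM untreated and 120.2, 131, 124 and 76.1 CPM treated, again without overlap. Its value was -0.46 ± 0.23 (SE), edgeR adjusted p = 0.983, and -0.22 with set 4 left out. EIF3G, which helps scanning, had -0.48 ± 0.25 (SE, edgeR adjusted p = 0.983) and was lower in 4 of 4 sets, at 199.5 to 325 against 166 to 266 CPM, with overlap. EIF3A (-0.33 ± 0.23), the largest subunit, and EIF3J (-0.46 ± 0.34), a loosely bound one, were also lower in 4 of 4 sets, and had -0.27 and -0.19 without the treated library of set 4.

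The EIF3 subunits parted most in set 4, where the treated SH2 library stood apart. Within that set the log2 difference was -2.59 for EIF3E, -2.08 for EIF3H, -1.72 for EIF3J, -1.27 for EIF3M and -0.89 for EIF3F. In the same pair of libraries EIF3A had -0.56, EIF3K -0.43, EIF3G -0.26, EIF3D -0.17, EIF3B 0.15 and EIF3I 0.90. EIF3E, for example, had 702, 397, 342 and 412 CPM untreated and 641, 457, 281 and 68.0 CPM treated, so that the treated library of set 4 lay far below the other 7. Over all sets EIF3E had -0.36 ± 0.49 (SE) and EIF3I 0.24 ± 0.34, and without the treated library of set 4 they had -0.01 and -0.29. The other SH2 sets did not show this pattern: in sets 1 to 3 EIF3E lay between -0.28 and 0.20 and EIF3I between -0.32 and -0.08.

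The factors that deliver the initiator tRNA and recognise the start codon had values on both sides of 0 with doxycycline in SH2 cells. Of these 9 factors 4 were negative, with a median of 0.00 and a range from -0.49 to 0.22. EIF1, which guards start codon choice, had 0.00 ± 0.27, EIF2S1, the alpha subunit of EIF2 that stress kinases phosphorylate, 0.06 ± 0.26, and EIF5B, which joins the ribosomal subunits, 0.22 ± 0.32 (SE). EIF2A, a tRNA-binding factor separate from EIF2, had -0.49 ± 0.28, with set differences of -0.71, -0.04, 0.04 and -1.53, and -0.26 without the treated library of set 4. Among the 5 subunits of EIF2B, the exchange factor for EIF2, EIF2B3 was lower in 4 of 4 SH2 sets (-0.69 ± 0.40) and higher in both control sets (0.33 ± 0.55). It had 6.15 to 21.3 CPM untreated and 4.94 to 10.05 CPM treated, with overlap. Some of these differences were close to 0, with 0.02 in control set 2 and -0.10 in SH2 set 4. That combination of directions held in 1 of 43 factors, against 1.55% of all genes tested. EIF2B2 had 40.2, 47.1, 52.5 and 28.7 CPM untreated and 28.9, 50.1, 50.7 and 101 CPM treated, so its value of 0.46 ± 0.34 came with a single high library, that of set 4, and was 0.04 without it. EIF6, which keeps the large ribosomal subunit from joining early, had 0.39 ± 0.33, and its treated library of set 4 held 209.9 CPM against 67.9 to 85.7 CPM in the other 3. Without that library EIF6 had -0.13.

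Of the members grouped under elongation, EEF1E1 had the lowest value with doxycycline. Also known as AIMP3, it is a subunit of the multi-tRNA synthetase complex. It had 19.7, 19.3, 24.9 and 45.6 CPM in untreated and 13.8, 13.7, 13.2 and 15.2 CPM in treated SH2 libraries. The groups did not overlap, and the untreated library of set 4 was the highest. The log2 fold change was -0.97 ± 0.37 (SE), unadjusted p = 0.0207, edgeR adjusted p = 0.983, and -0.61 without that library. The main elongation factors had values near 0: EEF1A1 had 0.16 ± 0.30 and EEF2 0.07 ± 0.21 (SE). EEF1A1 was slightly higher in 4 of 4 sets, by 0.07 to 0.25, within a spread of 5920 to 13130 CPM among the untreated libraries. EIF5A, the hypusine-bearing factor that helps ribosomes form difficult peptide bonds, had -0.49 ± 0.26, with set differences of 0.38, -0.33, -1.11 and -1.06.

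Counted over the libraries, 5 of 43 factors (PABPC4, EIF4G1, EEF1E1, EIF3H and EIF3M) had every treated SH2 library below every untreated one, against 2.03% of all genes. None had every treated library above, against 1.38% of all genes. In 4 of 4 sets 11 factors were lower and 2 higher, against 10.1% and 10.6% of all genes. The medians over the factors were -0.17, -0.08, -0.01 and -0.28 in SH2 sets 1 to 4, and -0.02 and 0.15 in control sets 2 and 4. The factors with a pyrimidine start described above had a median of -0.08 (7 of 11 negative), and those with another start -0.05 (13 of 24 negative). This split leaves out the tested factors without a start entry: EIF2S2, EIF3A, EIF3E, EIF3G, EIF3H, EEF1D, PABPC1 and PABPC4. All of these had negative values, from -0.94 (PABPC4) to -0.12 (EIF2S2), so the split does not describe the 43 factors as a whole.

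**Figure D2:**
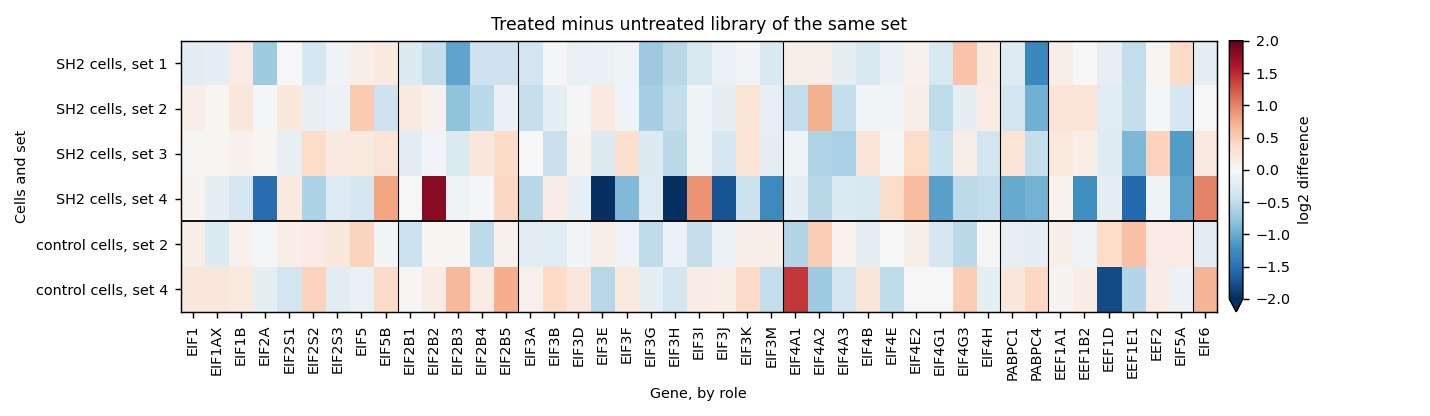
Log2 difference (treated minus untreated library of the same set, colour) for each tested factor in columns, grouped by role, and for each set of SH2 and control cells in rows. SH2 set 4 holds the strongest colours, with EIF3E at -2.59 and EIF2B2 at 1.80, while PABPC4 is negative in all 4 SH2 sets, from -1.29 to -0.47.

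In control cells, which the labels give as the control for doxycycline, edgeR called 0 of 43 factors, against 0% of all genes tested. At an unadjusted p under 0.05 there were 0 factors, against 0.685% of all genes, and DESeq2 and limma-trend called 0. The median log2 fold change was 0.04, with 18 of 43 negative, against 48.0% of all genes. The smallest p-value was that of EIF2B5, the catalytic subunit of EIF2B, at 0.44 ± 0.31 (SE, edgeR adjusted p = 1), with 77.8 and 78.1 CPM untreated and 82.4 and 129.5 CPM treated. Also among the 6 smallest p-values, EIF3G had -0.32 ± 0.35 (214 and 251 CPM untreated, 151 and 222 CPM treated) and EIF2S2, the beta subunit of EIF2, 0.32 ± 0.37 (679 and 668 CPM untreated, 763 and 917 CPM treated). The values of at least 33 of 43 factors changed sign when 1 of the 4 control libraries was left out. EIF3J and EIF2S3, at 0.00 in the main fit, are not in that count. Their values ran from -0.09 to 0.12 and from -0.14 to 0.13. EIF4A1 had 12.3 and 12.7 CPM untreated and 8.01 and 34.8 CPM treated in sets 2 and 4, a value of 0.77 ± 0.59 that turned to -0.63 without the treated library of set 4. EEF1D had -0.91 ± 0.65, and 0.02 without the untreated library of set 4. EIF4E went from -0.23 ± 0.30 to 0.04 without the treated library of set 4.

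The difference between the doxycycline responses of both kinds of cells was called in 0 of 43 factors by edgeR, against 0% of all genes. At an unadjusted p under 0.05 there was 1 factor, PABPC4, against 0.969% of all genes, and DESeq2 and limma-trend called 0. The median was -0.17 over the factors, of which 32 of 43 were negative, and 0.01 over all genes, of which 49.2% were negative. After PABPC4 the smallest p-values belonged to EIF2B3 (-1.02 ± 0.68), EIF4A1 (-0.93 ± 0.72), EEF1E1 (-0.75 ± 0.64), EIF4G1 (-0.47 ± 0.41) and EIF5A (-0.52 ± 0.45), each ± SE and each with an edgeR adjusted p of 1. That of EIF4A1 became 0.46 without the treated control library of set 4. This test shares its samples with both treatment comparisons, so its values are no separate evidence.

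**Figure D3:**
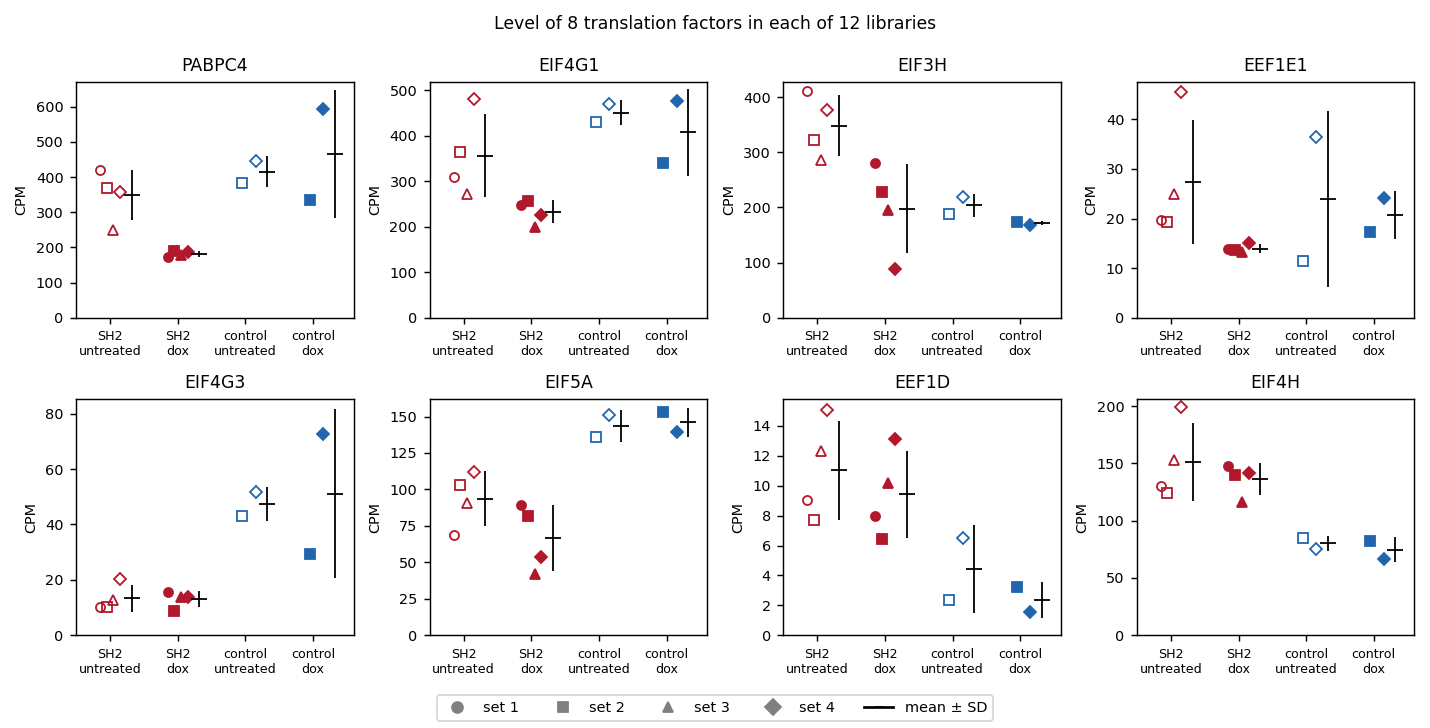
Level in CPM of 8 factors in each of the 12 libraries, with symbols for the set, open for untreated and filled for treated, and bars for the mean ± SD of each group. The treated SH2 libraries of PABPC4 lie between 172 and 189 CPM, and all 8 SH2 libraries of EIF4G3 lie between 8.73 and 20.2 CPM, below the 4 control libraries at 29.5 to 72.6 CPM.

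Before any doxycycline EIF4G3 was lower in SH2 than in control cells. By edgeR 1 of 43 factors was called in untreated cells, against 7.84% of all genes tested. It was lower in SH2 cells, as were 4.90% of all genes, and 0 factors were higher, against 2.94%. At an unadjusted p under 0.05 there were 6 factors, against 20.3% of all genes. With the set as a block 3 factors passed, EIF4G3 (-1.89, adjusted p = 0.0021), EIF4H (0.98, 0.0334) and EIF2S1 (0.92, 0.0312), and DESeq2 called 2. The number of all genes called also changed between the alternative fits, over the range given below. These counts are therefore no result about the factors alone. The median was 0.17 over the factors, with 15 of 43 negative, and 0.03 over all genes, with 48.3% negative. Of the T-cell markers 8 of 8 had counts in control cells, summing to 15.3 to 607 CPM per library, and in SH2 cells, where CD2 was at 0, the sum was 30.3 to 131 CPM, so the ranges overlapped. Stromal markers (5, of which 3 were in the table) summed to 6.64 to 18.1 CPM in control and 0.38 to 3.02 CPM in SH2 libraries, without overlap. COL1A2 was at 0 in SH2 and treated control cells, and COL3A1 in untreated SH2 and all control cells. Their part in the differences between SH2 and control cells was not tested.

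EIF4G3 encodes a second scaffold of the cap-binding complex, related to EIF4G1. It had 10.25, 10.08, 12.6 and 20.2 CPM in the untreated SH2 libraries of sets 1 to 4 and 43.2 and 51.7 CPM in the untreated control libraries of sets 2 and 4. With doxycycline it had 15.5, 8.73, 13.8 and 13.8 CPM in SH2 and 29.5 and 72.6 CPM in control libraries. No SH2 library reached the lowest control library. The log2 difference between untreated cells was -1.83 ± 0.39 (SE), or 3.55-fold lower in SH2 cells, edgeR adjusted p = 0.00937. Within sets it was -2.05 in set 2 and -1.33 in set 4. The call was lost without the untreated control library of set 2 (-1.95, adjusted p = 0.0512) or of set 4 (-1.69, adjusted p = 0.0842).

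EIF4H, which assists the EIF4A helicase, had 124 to 199 CPM in untreated SH2 and 75.6 and 84.9 CPM in untreated control libraries. Its difference of 0.92 ± 0.28 (SE) did not overlap between the groups and had an edgeR adjusted p of 0.0581. EIF1AX, which works with EIF1 in scanning, had 0.79 ± 0.30 (adjusted p = 0.14), with 119 to 173 against 83.5 and 84.2 CPM. EIF2S1 had 0.85 ± 0.33 (adjusted p = 0.152), with 51.6 to 101 against 34.2 and 49.2 CPM. EIF2B2 had 1.07 ± 0.44 (adjusted p = 0.182), and EEF1D 1.28 ± 0.53 (adjusted p = 0.187). In none of these 5 did the groups overlap. Every untreated SH2 library lay above both control libraries in 9 factors and below both in 4, against 15.5% and 17.4% of all genes.

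With doxycycline the difference between SH2 and control cells was called in 4 of 43 factors: EIF4G3, PABPC4 and EIF5A were lower in SH2 cells and EEF1D was higher. Over all genes tested the share called was 11.1%, with 6.48% lower and 4.60% higher. At an unadjusted p under 0.05 there were 11 factors, against 25.0% of all genes. The median over the factors was -0.04, with 22 of 43 negative, and over all genes 0.04, with 47.6% negative. With the set as a block 8 factors passed, the added ones being EIF4H (0.93, adjusted p = 0.0327), EIF2B2 (1.53, 0.0223), EIF2S1 (1.11, 0.00908) and EIF3K (-0.80, 0.0378). DESeq2 called 9, and a fit on the treated libraries alone called 2, EIF4G3 and PABPC4. Here too the number of all genes called changed between the alternative fits, so these counts are no result about the factors alone. Every call in the main fit was lost without the treated control library of set 4.

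EIF4G3 had a log2 difference of -1.97 ± 0.39 (SE) in treated cells, edgeR adjusted p = 0.00467, with -1.70 in set 2 and -2.35 in set 4. It was -1.19 with the treated control library of set 4 left out (adjusted p = 0.172). PABPC4 had -1.36 ± 0.28 (SE), or 2.56-fold lower in SH2 cells, edgeR adjusted p = 0.00658, with -0.83 in set 2 and -1.67 in set 4. Its 4 treated SH2 libraries all lay below both control libraries, whereas in untreated cells the groups overlapped (-0.25 ± 0.29, SE). Without the treated control library of set 4 it was -0.90 (adjusted p = 0.173).

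EIF5A had 89.2, 82.0, 41.8 and 53.6 CPM in treated SH2 and 153 and 139 CPM in treated control libraries, without overlap. Its log2 difference was -1.13 ± 0.31 (SE), edgeR adjusted p = 0.0305, with -0.90 in set 2 and -1.37 in set 4. In untreated cells it had -0.61 ± 0.31 (SE, adjusted p = 0.302), also without overlap, at 68.4 to 112 against 136 and 151 CPM. The call was lost without either treated control library (adjusted p = 0.163 without set 2 and 0.115 without set 4), without the treated SH2 library of set 3 (0.0673) and in the fit on the treated libraries alone (0.0956).

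EEF1D, an exchange subunit for EEF1A, rested on few reads: 106 counts over the 4 treated SH2 and 14 over the 2 treated control libraries. It had 7.96, 6.46, 10.2 and 13.1 CPM against 3.21 and 1.53 CPM, a log2 difference of 1.96 ± 0.57 (SE), edgeR adjusted p = 0.0405. The values were 0.91 in set 2 and 2.75 in set 4. The call was lost without any of 6 single libraries: both treated control ones, the untreated SH2 ones of sets 2 and 3, and the treated SH2 ones of sets 3 and 4 (adjusted p = 0.0535 to 0.298). All of the transcript end used for EEF1D is overlapped on the opposite strand by annotated genes, and 8 annotated pseudogenes carry its name.

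**Figure D4:**
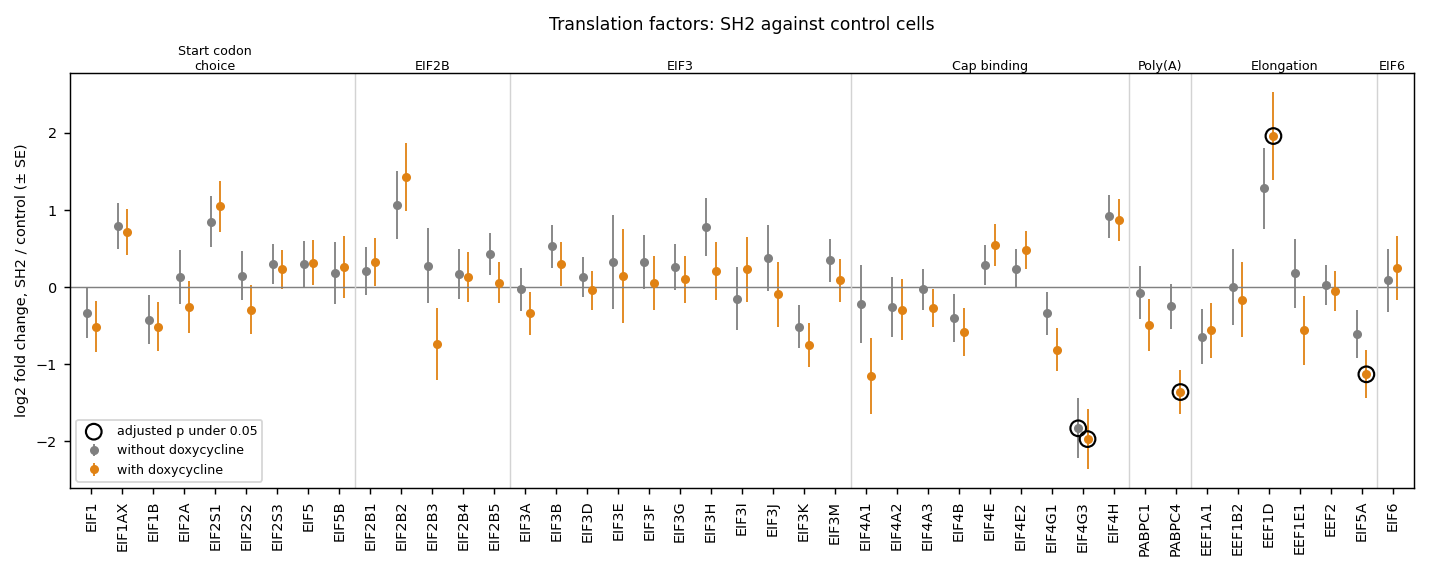
Log2 difference between SH2 and control cells with its standard error for each of the 43 tested factors, without doxycycline (n = 4 and 2) and with it (n = 4 and 2), ordered by role, with rings around those past the threshold. EIF4G3 lies at -1.83 and -1.97, PABPC4 at -0.25 and -1.36, EIF5A at -0.61 and -1.13 and EEF1D at 1.28 and 1.96.

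The next smallest p-values in treated cells missed the threshold: EIF2B2 at 1.43 ± 0.44 (SE, edgeR adjusted p = 0.0541) and EIF4H at 0.87 ± 0.27 (0.057). EIF2B2 had 28.9 to 101 CPM in SH2 and 18.6 and 24.4 CPM in control libraries, and its transcript end is overlapped on the opposite strand by AL049780.3. EIF4G1 had -0.81 ± 0.28 (adjusted p = 0.0818) in treated and -0.34 ± 0.28 in untreated cells. EEF1A1 had -0.64 ± 0.36 untreated and -0.56 ± 0.36 treated (SE), with all SH2 libraries of each treatment below both control libraries. No library of treated SH2 cells overlapped the control ones in 10 factors that were lower and 7 that were higher, against 16.6% and 15.4% of all genes.

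Some members could not be measured at their own locus. EEF1G, a structural subunit of the EEF1 complex, had 0 counts in all 12 libraries, which allows up to 0.0884 CPM over all 33939044 counts, counting error only. In GENCODE release 29, 99.3% of its transcript end is overlapped on the same strand by AP002990.1. EIF3L had 0 to 4 counts per library, and all of its end is overlapped on the same strand by AL022311.1. EIF3C also had 0 to 4 counts per library, beside its near-identical copy EIF3CL. EIF4A1, the main helicase of the cap complex, passed the filter with 17 to 91 counts per library, but all of its end is overlapped on the same strand by AC016876.2 and SENP3-EIF4A1. The annotation and strand setting the authors counted with were not given in the sources used here, so the values of these genes are uncertain. The same holds for EEF1A1, whose name is carried by 39 annotated pseudogenes.

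Regulators of these factors were listed separately, and 38 of 45 were tested. With doxycycline in SH2 cells edgeR called 0 of them, against 0.0167% of all genes, with 3 at an unadjusted p under 0.05, against 4.88%. The median was -0.10 with 24 of 38 negative. EIF4G2, a relative of EIF4G1 that lacks the site for EIF4E, had a mean of 322 CPM untreated and 156 CPM treated, -1.05 ± 0.23 (SE, adjusted p = 0.613). Next came EIF2AK1, the haem-regulated kinase of EIF2S1 (0.64 ± 0.26), MCTS1 (-0.56 ± 0.23) and the mTOR subunit MLST8 (-0.50 ± 0.25, SE). Between untreated SH2 and control cells 1 regulator of 38 was lower and 2 were higher by edgeR, against 4.90% and 2.94% of all genes. MKNK2, a kinase of EIF4E, had -1.69 ± 0.33 (adjusted p = 0.00559), TPT1 1.25 ± 0.33 (0.0322) and EIF4EBP1, which blocks EIF4E, 1.27 ± 0.37 (0.0493). In treated cells 6.48% of all genes were lower and 4.60% higher. Of the 38 regulators 3 were lower: MKNK2 (-1.78), EIF4G2 (-1.39) and PAIP2B (-3.51 ± 0.85, SE), an inhibitor of poly(A)-binding protein. The 2 higher ones were EIF4EBP1 (2.16) and TPT1 (1.61). PAIP2B rested on low levels, with means of 2.81 CPM in treated SH2 and 31 CPM in treated control cells.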

How the data were processed

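RNA of 12 libraries was prepared with a QuantSeq kit that captures the transcript end next to the poly(A) tail, per the labels' protocols. The authors deposited whole-number counts per gene from HTSeq; the submitters' processing notes also name FastQC, STAR, DESeq2 and hg38 (GRCh38), and the annotation is not given in the sources used here. A further table the authors deposited holds normalized signal (26231 genes), whose values gave back whole reads (100%, tolerance 0.01) equal to the counts, so the count test already runs on the recovered reads (2 genes called with doxycycline in SH2 cells). Its gene names defined the members, except EEF1G, which was matched in the count tables by its gene identifier. The 5 HTSeq summary lines were left out. Of all reads per library 42.2% to 63.8% were not unique, 3.25% to 7.73% lay outside genes and 1.11% to 1.62% were ambiguous.

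All genes were fitted in R 4.3.3 with edgeR 4.0.16 (TMM scaling, filterByExpr with minimum count 10, robust quasi-likelihood test, 1 term per group over all 12 libraries), with Benjamini-Hochberg adjustment over 11968 genes and 0.05 as the threshold. The common spread (biological coefficient of variation) came to 0.376. Group means carry the SD and fold changes the SE. Set differences are on log2(CPM + 0.5). Levels are not compared between genes. Alternatives were DESeq2 size factors, no filter, the set as a block, the DESeq2 1.42.0 Wald test, the compared groups only, limma-trend (limma 3.58.1, pseudocount 1) on the deposited table and leaving out libraries. The script was tested on simulated data.

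Per the design text, each set was its own sort and treatment. All replicate pairs differed by more than sampling noise (chi-square per degree of freedom 8.39 to 47.7). The labels give the set numbers. Deviations from group means correlated at 0.188 to 0.663 between same-set SH2 libraries, over the minimum of 0.1, and at -0.548 to 0.272 between other sets. The ranges overlapped, with set 2 at 0.188. Deviations from a group mean sum to 0, which lowers the values between other sets. The pairing by set therefore rests on the labels and the design text. The main fit has no term for the set, and the block is an alternative. The members and lists were chosen with earlier results of these data known. Members past the threshold, and the 6 with the smallest unadjusted p per comparison, were named with their fold changes, and the others by role; of each related list the 4 smallest p-values and the called genes were named, and not all were printed. Transcript ends are the last 300 exonic bases of principal transcripts in GENCODE release 29. Floors are 3 counts; without molecular identifiers reads are not independent molecules, so floors cover counting error only. Start windows come from the RefSeq promoter table (GRCh38.p14; 250 bases before to 50 after the start).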

Additional observations from a re-analysis of the deposited data

Results flagged for a closer look

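In 7 of 90 groups of 4 SH2 libraries a single library lay far from the other 3, and chance gives about 1 in 20 groups. In treated SH2 cells the library of set 4 was the highest of 4 for EIF1 (1770 CPM), EIF3I (331 CPM), EIF6 (210 CPM) and EIF3C (0.337 CPM, a single read, with 0 in the other 3). The treated library of set 1 was the lowest for EIF2S1 (51.5 CPM). In untreated SH2 cells the library of set 4 was the lowest for EIF4E (38.3 CPM) and the highest for EIF6 (106 CPM).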

How the results depend on the processing

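The count of called factors with doxycycline in SH2 cells was 0 in every alternative except the DESeq2 Wald test, where it was 1. It was 0 in every alternative for control cells and for the difference between both responses; the fit on the compared groups alone was not run for the latter, which uses all groups. For untreated SH2 against control cells the main count of 1 became 3 with the set as a replicate block, 2 with the DESeq2 Wald test, 2 with limma-trend on the deposited table, 2 without both SH2 libraries of set 4 and 0 to 2 when each library was left out. For treated cells the main count of 4 became 8 with the replicate block, 9 with the DESeq2 Wald test, 5 without a filter on low counts (EIF2B2 added), 5 with limma-trend (EIF4H added), 2 with the compared groups only and 0 to 6 when each library was left out (0 when the treated control library of set 4 was omitted, 2 when the treated SH2 library of set 3 was). Without both SH2 libraries of set 4 the count stayed at 4, with EEF1D lost and EIF4H gained. The pairing by set changed no other call. In control cells at least 33 of 43 factors changed sign when 1 control library was left out, among them 3 of the 6 with the smallest p-values. EEF1D ran from -1.54 to 0.02, the latter without the untreated library of set 4. EIF4E ran from -0.56 to 0.04, and EIF4A1 from -0.63 to 1.47 (-1.65 to 0.46 for the difference between responses), all turned by omitting the treated library of set 4. Such fits leave 1 library in a group, which is assumed to vary like the others. The number of all genes called ran from 0 to 47 with doxycycline in SH2 cells (main 2), from 343 to 1505 for untreated (main 938) and from 645 to 2171 for treated SH2 against control cells (main 1326). Counts of factors were not set against the share of all genes in each fit. Their changes are therefore no result about the factors alone. The cause of these changes was not tested, beyond the smaller number of samples where libraries were left out. EEF1D, EIF4A1 and EIF2B3 are limited by low counts, as is the regulator PAIP2B in SH2 cells.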

Other observations

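Factors of termination and ribosome recycling (9 of 9 tested) held 0 called genes with doxycycline in SH2 cells by edgeR (0.0167% of all genes), with a median log2 fold change of -0.21 and 1 at an unadjusted p under 0.05 (4.88% of all genes), ABCE1, the ATPase that splits ribosomes (-0.63 ± 0.25, SE). ABCE1 was the 1 of 9 higher in untreated SH2 than control cells (1.14 ± 0.33, adjusted p = 0.0479; 2.94% of all genes were higher), and PELO, which rescues stalled ribosomes, was higher in treated SH2 than control cells (1.66 ± 0.42, adjusted p = 0.0194; 4.60% of all genes were higher). Of the mitochondrial translation factors 11 of 12 were tested, and 0 were called with doxycycline in SH2 cells (median -0.06), with 1 at an unadjusted p under 0.05. The smallest p-value there was that of the release factor MTRF1L, with means of 18.0 CPM untreated and 9.09 CPM treated (-0.98 ± 0.30, SE, adjusted p = 0.953). The initiation factor MTIF3 was the 1 of 11 higher in treated SH2 than control cells (1.39 ± 0.40, adjusted p = 0.0369).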
